A study of Mus musculus with 6 samples.

Results

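The genes described here encode the nuclear subunits of the oxidative phosphorylation (OXPHOS) complexes of mitochondria. They were chosen by symbol: protein-coding genes named Ndufa, Ndufb, Ndufc, Ndufs or Ndufv with a digit, Sdha to Sdhd, names that start with Uqcr, Cox4 to Cox8, and names that start with Atp5, without pseudogenes. The rule took 86 of the 39179 gene identifiers of the expression table, with 85 distinct symbols because Ndufb8 has 2 identifiers. Complex I has 38 of them, complex II 4, complex III 8, complex IV 18 and complex V 15. The other 3 fall under the rule by an older name only and name no subunit: Cox4nb (now Emc8, a member of the ER membrane complex), Atp5s (now Dmac2l) and Atp5sl (now Dmac2, which takes part in the assembly of complex I).

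RNA-Seq compared germinal center (GC) and naive, or resting, B cells from Peyer's patches from the ileum of wild-type female C57BL/6 mice aged 12 weeks. GC B cells were sorted as Fas+GL7+ and naive B cells as Fas-GL7-, so that the populations differ by these surface markers and carry no engineered allele. Each population had 3 replicates, every one of them pooled from several mice. The comparison asks how the RNA of each complex differs between resting B cells and the dividing, antigen-selected B cells of the GC.

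OXPHOS passes electrons from NADH and succinate to oxygen through complexes I to IV in the inner mitochondrial membrane. Complexes I, III and IV pump protons across the membrane as electrons pass, and complex V, the ATP synthase, uses the return of those protons to make ATP. Most subunits are encoded in the nucleus and imported, whereas a small set in the core of complexes I, III, IV and V is encoded by mitochondrial DNA (mtDNA), so that 2 genomes contribute to the same complexes.

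The deposited values were FPKM, fragments normalized to transcript length and library size, and were rescaled here to TPM, a level per transcript length that sums to the same total in every pool. The sort was checked on its markers. Fas ranged from 108 to 119 TPM in GC pools and from 3.03 to 3.59 TPM in naive pools, and Bcl6 was also higher in all GC pools. The 5 GC markers summed to between 1120 and 1140 TPM in GC pools and to between 51.4 and 56.9 TPM in naive pools, and among them the proliferation marker Mki67 ranged from 227 to 229 TPM in GC pools and from 0.697 to 0.904 TPM in naive pools. Of the 8 intestinal epithelial markers, 7 were tested, of which 5 were lower and 1 (Krt18) higher in GC pools. These markers summed to between 52.1 and 113 TPM in GC pools and to between 131 and 169 TPM in naive pools. T cell markers summed to at most 3.68 TPM and myeloid markers to at most 7.87 TPM in any pool, with Cd3e, Cd3d, Cd8a and Csf1r under 1 TPM in all 6. Intestinal epithelium is rich in mitochondria, and its markers were lower in sum in the GC pools, where most OXPHOS genes were higher. The summed TPM of the mtDNA-encoded subunits, given below, was lower in the GC pools, as the epithelial sum was. The part of epithelial RNA, and of cell division, in the results was not tested. In bulk RNA of sorted cells, a smaller share of expressing cells and less RNA per cell cannot be told apart.

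Of the 86 OXPHOS genes, 78 had at least 1 TPM in at least 3 pools and were tested with limma on log2(TPM + 1) in a fit over 12785 genes. A gene was called at a Benjamini-Hochberg adjusted p under 0.05. In GC B cells 64 of the 78 were called higher, which is 82.1%, against 35.5% of all genes tested. Only 3 were called lower, which is 3.85%, against 30.1% of all genes. The remaining 11 were not called. The median log2 fold change (GC minus naive) of the 78 was 0.55, against 0.03 over all genes tested. Every GC pool was above every naive pool for 67 of the 78, against 37.8% of all genes, and below for 3, against 32.8%. Other ways of scaling the values left between 59 and 64 called higher.

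The differences were of modest size. Of the 78 genes, 60 were at least 1.3-fold higher in GC B cells and 51 lay between 1.3-fold and 2-fold. The pools of a population lay close together, with a median coefficient of variation over the tested genes of 5.7% in GC and 6.83% in naive pools. Only 6 genes varied by more than 20% within a population: Ndufa3, Ndufb4, Ndufs5, Cox6b2, Cox7a1 and Cox7b.

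**Figure D1:**
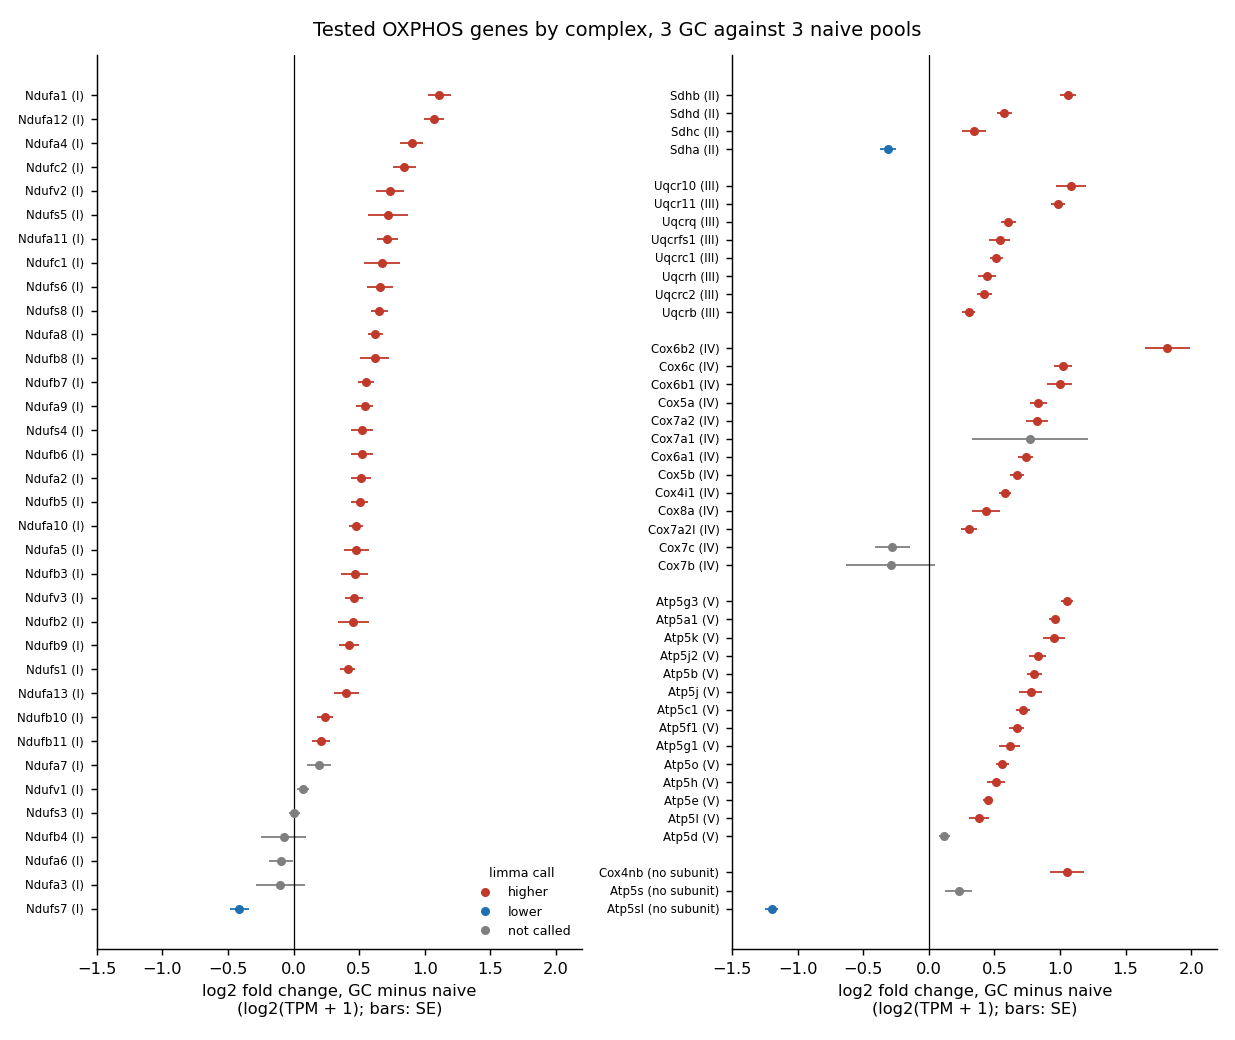
Log2 fold change (GC minus naive, on log2(TPM + 1)) of the tested OXPHOS genes, 1 of which is not drawn, with the standard error from limma as bars, by complex. Red points were called higher, blue points lower (3, which are Ndufs7, Sdha and Atp5sl) and gray points were not called (11).

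The summed TPM of all 86 genes was 15757, 16454 and 15571 in GC replicates 1, 2 and 3, and 10884, 10527 and 11232 in naive replicates 1, 2 and 3. The GC mean of 15927 ± 465 TPM (SD, n = 3) made up 1.59% of all TPM, and the naive mean of 10881 ± 353 TPM (SD, n = 3) made up 1.09%. The sum was 1.46-fold higher in GC B cells and the pools did not overlap, with p = 0.1 in a two-sided exact permutation test, the smallest value that 3 against 3 pools allow.

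Each complex was higher in sum in all GC pools, by 1.24-fold for complex II, 1.36-fold for complex I, 1.48-fold for complex IV, 1.53-fold for complex III and 1.62-fold for complex V, each with an exact permutation p = 0.1. The balance between complexes differed too. The ratio of complex I to complex V was 0.865, 0.892 and 0.873 in GC pools and 1.04, 1.07 and 1.04 in naive pools. Ratios between pairs of complexes share their sums and are not independent of each other. Of the 10 such ratios, 9 had pools that did not overlap (exact permutation p = 0.1, adjusted 0.108 over 13 ratios). The ratio of complex III to complex IV was the exception, with 0.381 ± 0.0139 in GC and 0.368 ± 0.00413 in naive pools (SD, n = 3; exact permutation p = 0.2).

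**Figure D2:**
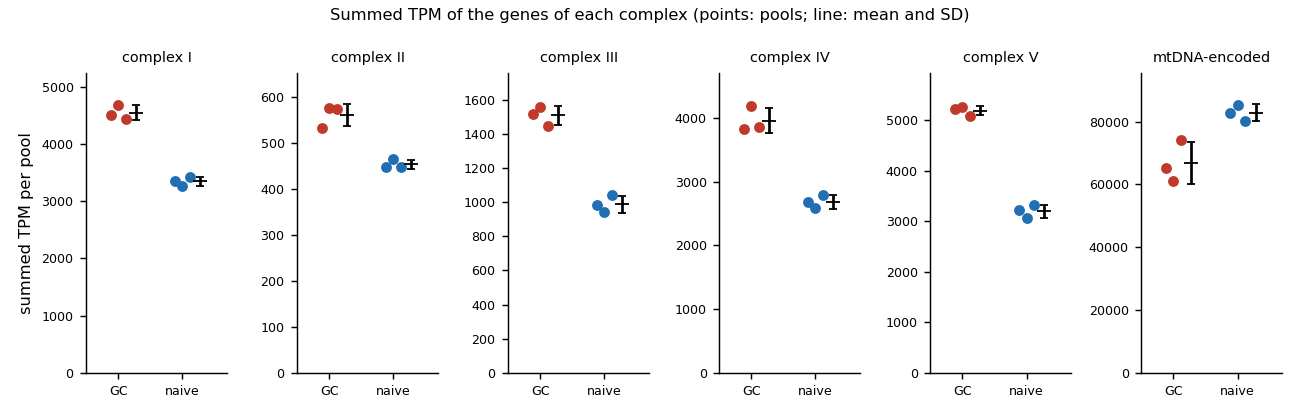
Summed TPM of the nuclear genes of each complex and of the mtDNA-encoded subunits in each pool (points: replicates 1 to 3 of GC in red and of naive B cells in blue; black line and bars: mean and SD, n = 3; each panel has its own axis from 0). All GC pools lie above all naive pools for complexes I to V and below them for the mtDNA-encoded sum.

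Complex I oxidizes NADH and is the largest complex of the chain. Of its 36 tested genes, 29 were called higher, 1 lower and 6 not, with a median log2 fold change of 0.51. The catalytic core did not move as 1 block. Ndufv2, Ndufs8 and Ndufs1, which carry iron-sulfur clusters, rose by 0.73, 0.65 and 0.41 on the log2 scale.

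Ndufv1, which binds NADH and the flavin, had 107, 110 and 116 TPM in GC pools and 103, 106 and 107 TPM in naive pools. These groups overlap, and the gene was not called (log2 fold change 0.07, SE 0.05, limma adjusted p = 0.229). Ndufs3, a core subunit of the peripheral arm, had 125, 119 and 120 TPM in GC pools against 122, 124 and 117 TPM in naive pools (log2 fold change 0.01, SE 0.04, limma adjusted p = 0.919). It was called lower after quantile normalization (log2 fold change -0.13, limma adjusted p = 0.021) and after correction for GC content and transcript length (log2 fold change -0.15, limma adjusted p = 0.0225).

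Ndufs7, which holds the last iron-sulfur cluster before ubiquinone, was the only complex I gene called lower. It had 126, 117 and 107 TPM in GC pools and 163, 145 and 159 TPM in naive pools. All GC pools were below all naive pools (log2 fold change -0.41, SE 0.08, limma adjusted p = 0.00296). Core subunits of the same electron path thus had values on both sides of 0.

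The accessory subunits of complex I with the largest increases were Ndufa1, Ndufa12 and Ndufa4. Ndufa1, a small membrane-arm subunit that assembly requires, had 254, 233 and 250 TPM in GC pools and 107, 104 and 129 TPM in naive pools (log2 fold change 1.11, SE 0.09, limma adjusted p = 6.19e-05). Ndufa12 had 168 ± 6.2 TPM in GC against 79.7 ± 7.95 TPM in naive pools (SD, n = 3). Both genes were about 2-fold higher in the mean of the GC pools, with no overlap.

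Ndufa4 had the highest level of the Ndufa to Ndufv genes in GC B cells, with 371, 378 and 384 TPM against 215, 175 and 219 TPM in naive pools (log2 fold change 0.90, SE 0.09, limma adjusted p = 0.000172). Its protein is now placed in complex IV, and counted there it leaves 28 of 35 complex I genes and 11 of 14 complex IV genes called higher. Its paralog Ndufa4l2, known from hypoxic cells, was at 0.482, 0.526 and 0.53 TPM in GC pools and listed at 0 in all naive pools, below the filter.

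Besides Ndufv1 and Ndufs3, the accessory subunits Ndufa3, Ndufa6, Ndufa7 and Ndufb4 were not called. Ndufa3 had 277, 301 and 343 TPM in GC pools and 353, 404 and 247 TPM in naive pools, which overlap widely. Ndufa7 had pools that just did not overlap, the lowest GC pool at 162 TPM and the highest naive pool at 161 TPM. Ndufb4 was measured at a far lower level than the other Ndufb genes with a call, at 14.3 ± 1.41 TPM in GC against 15.4 ± 3.41 TPM in naive pools (SD, n = 3). Several OXPHOS genes have near-identical copies elsewhere in the genome, among which reads are divided by a model, so that the level of such a gene is uncertain. The second identifier of Ndufb8 was above 0 only in GC replicate 2, at 3.74 TPM.

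Complex II, succinate dehydrogenase, belongs to both the citric acid cycle and the respiratory chain and has only nuclear subunits. Its 4 genes moved in opposite directions. Sdhb, the iron-sulfur subunit, had 190, 202 and 197 TPM in GC pools and 96.1, 86.5 and 98 TPM in naive pools (log2 fold change 1.06, SE 0.06, limma adjusted p = 1.31e-05).

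Sdha, the flavoprotein that oxidizes succinate and partners Sdhb, had 169, 181 and 191 TPM in GC pools and 223, 236 and 213 TPM in naive pools. All GC pools were lower (log2 fold change -0.31, SE 0.06, limma adjusted p = 0.00451). The membrane anchors Sdhd and Sdhc rose by 0.58 and 0.34 on the log2 scale. Sdhc lost its call after correction for GC content and transcript length (log2 fold change 0.21, limma adjusted p = 0.0691), after quantile normalization (0.20, limma adjusted p = 0.106) and without GC replicate 2 (0.29, limma adjusted p = 0.0549). The level of Sdha was thus above that of Sdhb in all naive pools and below it in all GC pools, on a scale per transcript length.

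Complex III passes electrons from ubiquinol to cytochrome c. All 8 of its tested genes under the symbol rule were called higher, with a median log2 fold change of 0.53. The small subunits Uqcr10 and Uqcr11 changed most. Uqcr10 had 248, 259 and 212 TPM in GC pools and 111, 99.2 and 128 TPM in naive pools (log2 fold change 1.08, SE 0.11, limma adjusted p = 0.000227). Uqcrfs1, the Rieske iron-sulfur protein, and the core proteins Uqcrc1 and Uqcrc2 rose by 0.54, 0.52 and 0.42 on the log2 scale. Uqcrh and Uqcrq had the highest levels, with 289 ± 17.1 and 281 ± 3.55 TPM in GC against 212 ± 15.3 and 185 ± 12.9 TPM in naive B cells (SD, n = 3).

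Complex IV, cytochrome c oxidase, passes electrons to oxygen. Of its 13 tested nuclear genes, 10 were called higher and 3 were not called, with a median log2 fold change of 0.74. Cox4i1, the largest nuclear subunit, had 610, 636 and 622 TPM in GC pools and 422, 398 and 429 TPM in naive pools (log2 fold change 0.58, SE 0.04, limma adjusted p = 4.4e-05). Cox6a1 followed with 594 ± 24.6 against 356 ± 22 TPM, and Cox6b1 with 492 ± 34.5 against 247 ± 28.1 TPM (SD, n = 3). Cox6c, a small subunit, rose by 1.02 on the log2 scale.

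Several subunits of complex IV exist as alternative forms made by different genes, and the ubiquitous or liver forms held most of the RNA. Cox4i2, the lung form of subunit 4, was listed at 0.249 TPM in GC replicate 2 and at 0 in the other 5 pools. Cox6a2 and Cox8b, the heart and muscle forms, were each above 0 in 1 pool only, at 0.243 and 0.766 TPM. Cox7b2 and Cox8c were listed at 0 in all pools.

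Cox6b2, the testis form of subunit 6b, had the largest fold change of all 78 genes. It had 7.33, 7.67 and 9.84 TPM in GC pools and 1.57, 2.08 and 1.25 TPM in naive pools (log2 fold change 1.82, SE 0.17, limma adjusted p = 0.000132). All GC pools were above all naive pools, by 5.07-fold in the mean TPM. Its level stayed far below that of Cox6b1, and it made up 1.46%, 1.44% and 2.11% of the summed TPM of both genes in GC pools and 0.64%, 0.933% and 0.45% in naive pools.

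Cox7a1, the muscle form of subunit 7a, had 3.39, 12.6 and 7.54 TPM in GC pools and 4.93, 2.29 and 4.29 TPM in naive pools, which overlap, and was not called (log2 fold change 0.77, SE 0.44, limma adjusted p = 0.169). It was called higher without GC replicate 1 (log2 fold change 1.2, limma adjusted p = 0.0252). Its ubiquitous counterpart Cox7a2 rose by 0.83 on the log2 scale. Of the summed TPM of both genes, Cox7a1 made up 2.69%, 8.66% and 6.2% in GC pools and 6.6%, 3.48% and 5.46% in naive pools. Cox7a2l, counted in complex IV by its symbol, rose by 0.31 (limma adjusted p = 0.00434), a call that was lost after correction for GC content and transcript length (log2 fold change 0.04, limma adjusted p = 0.593).

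Cox7b and Cox7c, small subunits of the same complex, were not called. Cox7b had 141, 326 and 330 TPM in GC pools and 300, 355 and 262 TPM in naive pools. GC replicate 1 alone set its negative log2 fold change of -0.29, which turned to 0.11 without that pool. Cox7c had 158 ± 20.3 TPM in GC against 192 ± 30.5 TPM in naive pools (SD, n = 3; log2 fold change -0.28, SE 0.14, limma adjusted p = 0.117).

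Complex V was the highest in sum in GC pools, with 5186 ± 89.6 TPM against 3192 ± 130 TPM in naive pools (SD, n = 3). In naive pools complex I was the highest in sum, at 3351 ± 80 TPM (SD, n = 3). Of its 14 tested genes, 13 were called higher and 1 was not called, with a median log2 fold change of 0.70. Atp5b, the catalytic beta subunit, was the highest of all OXPHOS genes chosen, with 1018, 1064 and 1022 TPM in GC pools and 570, 565 and 644 TPM in naive pools (log2 fold change 0.80, SE 0.06, limma adjusted p = 4.35e-05). Atp5a1, the alpha subunit that alternates with beta in the catalytic head, had 606 ± 16.5 against 311 ± 9.36 TPM (SD, n = 3; log2 fold change 0.96).

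The subunits of the central stalk, which turns inside the head, differed from each other. Atp5c1, the gamma subunit, rose by 0.72 and Atp5e, the epsilon subunit, by 0.45 on the log2 scale. Atp5d, the delta subunit, had 253, 246 and 239 TPM in GC pools and 224, 220 and 236 TPM in naive pools. These pools did not overlap, but the difference was small and was not called (log2 fold change 0.12, SE 0.04, limma adjusted p = 0.054). It passed the threshold without naive replicate 3 (log2 fold change 0.15, limma adjusted p = 0.0243).

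The ring of c subunits, through which protons pass, is made from 3 genes that encode the same mature protein. Atp5g3 had 509, 502 and 501 TPM in GC pools and 247, 229 and 252 TPM in naive pools (log2 fold change 1.05, SE 0.05, limma adjusted p = 4.1e-06). Atp5g1 had 125, 121 and 105 TPM in GC pools and 74.7, 80.3 and 71.7 TPM in naive pools (log2 fold change 0.62, SE 0.08, limma adjusted p = 0.000671). Atp5g2 was listed at 0 in all 6 pools. Reads of such similar genes are divided by a model, and a listed 0 can be a failed estimate, so the split among these genes is uncertain. Of the summed TPM of these genes, Atp5g3 made up 80.3%, 80.6% and 82.7% in GC pools and 76.8%, 74% and 77.8% in naive pools.

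The 3 genes that share only the older name behaved unlike each other. Cox4nb (Emc8) lies on chromosome 8 next to Cox4i1, with 137 bases between the genes in GRCm38.p6, and had 91.9, 91 and 85.2 TPM in GC pools and 52.3, 40.6 and 36.4 TPM in naive pools (log2 fold change 1.05, SE 0.13, limma adjusted p = 0.000497). Atp5s was low, with 6.47 ± 0.351 against 5.38 ± 0.425 TPM (SD, n = 3), and was not called. Atp5sl (chromosome 7, 25619414 to 25625550, GRCm38.p6) had the largest decrease of the 78, with 70.8, 75.6 and 69.2 TPM in GC pools and 165, 170 and 164 TPM in naive pools (log2 fold change -1.20, SE 0.05, limma adjusted p = 3.29e-06). All naive pools of Atp5sl were more than 2-fold above all GC pools.

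**Figure D3:**
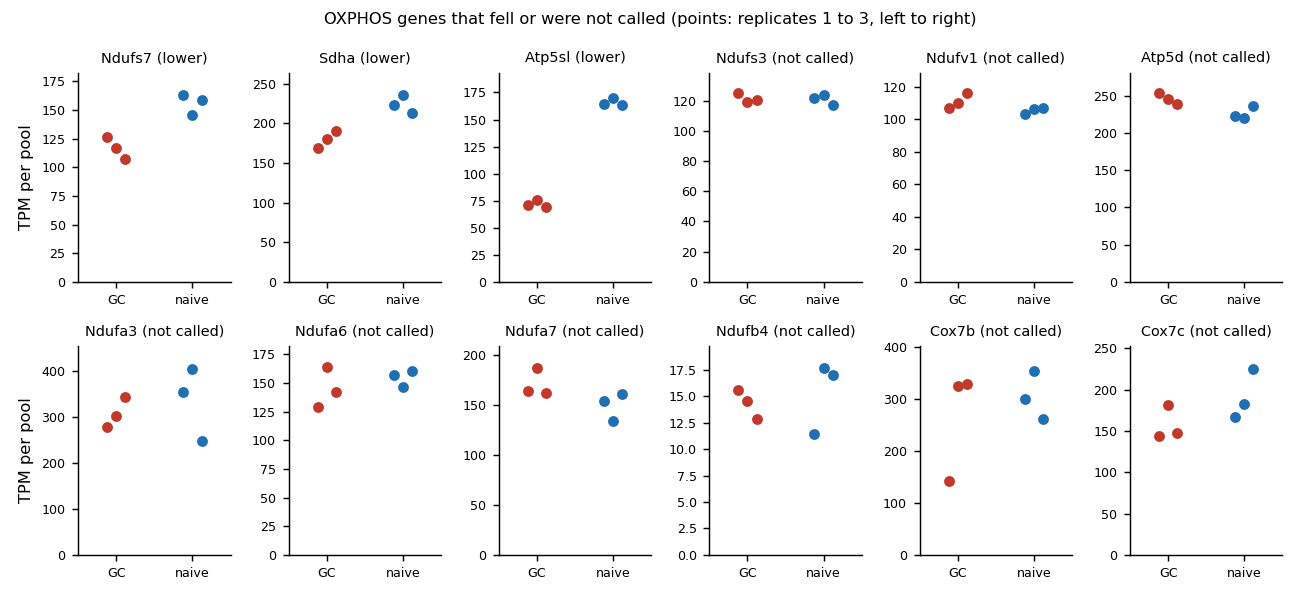
TPM in each pool (red: GC replicates 1 to 3; blue: naive replicates 1 to 3; each panel has its own axis from 0) of the 3 genes called lower and of 9 of the 11 genes not called. The groups are apart for Ndufs7, Sdha and Atp5sl, nearly level for Ndufs3, and the low Cox7b value of 141 TPM is GC replicate 1.

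Promoter sequences are shown for the genes with the largest changes in each direction among the calls in the complexes and their namesakes, as far as a window was at hand, to set genes that rose beside genes that fell. Each window has 300 bases, 250 before and 50 from the annotated start on, on the strand of the gene, from RefSeq on GRCm38.p6. Capitals mark letters of a searched motif: GGGCGG or its complement CCGCCC (SP1) in Cox6b2 and Ndufa1, which rose, and AAGATGGCG (YY1) in Atp5sl and Ndufs7, which fell. The windows lie at chr7:4753045-4753344 (minus strand) for Cox6b2, chrX:37191189-37191488 (minus strand) for Ndufa1, chr7:25619164-25619463 (plus strand, 1 of 2 windows) for Atp5sl and chr10:80249199-80249498 (plus strand) for Ndufs7.
Cox6b2: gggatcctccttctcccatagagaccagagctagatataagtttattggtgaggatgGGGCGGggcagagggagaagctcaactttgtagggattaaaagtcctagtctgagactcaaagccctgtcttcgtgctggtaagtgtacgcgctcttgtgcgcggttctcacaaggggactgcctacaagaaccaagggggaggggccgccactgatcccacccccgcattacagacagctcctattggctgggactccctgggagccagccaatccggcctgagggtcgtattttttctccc
Ndufa1: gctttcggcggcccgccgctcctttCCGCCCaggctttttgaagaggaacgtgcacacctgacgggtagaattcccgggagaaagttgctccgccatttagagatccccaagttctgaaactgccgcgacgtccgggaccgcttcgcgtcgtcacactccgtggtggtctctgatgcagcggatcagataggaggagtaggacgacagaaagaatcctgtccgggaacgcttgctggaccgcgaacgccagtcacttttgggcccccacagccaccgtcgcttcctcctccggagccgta
Atp5sl: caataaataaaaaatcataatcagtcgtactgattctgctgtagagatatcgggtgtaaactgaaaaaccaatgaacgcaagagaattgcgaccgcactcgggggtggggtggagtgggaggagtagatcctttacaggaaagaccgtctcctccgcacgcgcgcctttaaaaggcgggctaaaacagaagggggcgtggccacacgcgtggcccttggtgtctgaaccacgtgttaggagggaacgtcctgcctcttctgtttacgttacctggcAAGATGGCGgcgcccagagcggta
Ndufs7: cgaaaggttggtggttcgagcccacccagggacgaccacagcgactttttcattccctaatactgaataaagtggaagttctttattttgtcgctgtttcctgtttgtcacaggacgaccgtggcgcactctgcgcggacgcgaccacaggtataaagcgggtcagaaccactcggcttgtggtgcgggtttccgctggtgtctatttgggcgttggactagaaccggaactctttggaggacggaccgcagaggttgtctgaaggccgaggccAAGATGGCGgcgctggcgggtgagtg

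The SP1 letters begin 193 bases before the start in Cox6b2 and 225 bases before it in Ndufa1, and neither window holds the letters of the other motifs. The YY1 letters begin at base 27 of the transcript in Atp5sl and at base 25 in Ndufs7. They include ATG, and whether they overlap the start codon was not tested. Over the 75 windows of 69 OXPHOS genes, on either strand, the YY1 letters were in 12.0% and in 1.4% of all 32851 windows. The letters CGCATGCG, the core of the NRF1 motif, were in 12.0% against 1.87%, the shorter NRF1 string TGCGCA in 25.3% against 7.76%, and CCGGAAG, an ETS motif that GABPA binds, in 21.3% against 8.86%. GGGCGG was in 38.7% against 35.7%. The NRF1 letters can share bases with each other, and a match describes letters in a window only.

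By call, the NRF1 core was in 8 of the 55 windows of genes called higher, among them those of Uqcr11, Cox6a1, Atp5j and Atp5k, and the ETS letters were in 15. The 4 windows of the genes called lower held the shorter NRF1 string in Sdha and the YY1 letters in Ndufs7 and in both windows of Atp5sl. The YY1 letters were also in 6 windows of genes called higher, so that genes of both directions carried them.

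The 13 subunits encoded by mtDNA are not among the 86 genes and were set beside them. Their summed TPM was 65211, 60972 and 74247 in GC pools and 82882, 85452 and 80179 in naive pools. All GC pools were below all naive pools (0.807-fold, exact permutation p = 0.1), making up 6.68% of all TPM in GC pools and 8.28% in naive pools. Of the 13 genes, 12 were called lower (92.3%, against 30.1% of all genes tested) and 1 was not called, with a median log2 fold change of -0.30. The count was 7 without GC replicate 1, naive replicate 1 or naive replicate 2, 7 with a replicate block and 2 after quantile normalization. After correction for GC content and transcript length it was 11, and the median log2 fold change was larger, at -0.57. Over all genes, 4318 of 11031 were called lower in the corrected fit.

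mt-Nd2 and mt-Nd6, both of complex I, had the largest decreases. mt-Nd2 had 1386, 1276 and 1583 TPM in GC pools and 2117, 2207 and 2108 TPM in naive pools (log2 fold change -0.60, SE 0.08, limma adjusted p = 0.000668). mt-Nd6 had 1294 ± 168 against 1961 ± 189 TPM (SD, n = 3). It is the only one of them transcribed from the other strand, and the library was not stated to keep the strand.

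Among the mtDNA-encoded subunits of the other complexes, mt-Atp6 of complex V had 7478 ± 755 TPM in GC against 9531 ± 203 TPM in naive pools, mt-Co2 of complex IV 7783 ± 702 and 9816 ± 39.2 TPM, and mt-Cytb of complex III 4059 ± 559 and 4905 ± 176 TPM (SD, n = 3). mt-Co1, the catalytic subunit of complex IV, was called lower (log2 fold change -0.29, limma adjusted p = 0.042) although its pools overlapped, with 9652 TPM in GC replicate 3 and 9581 TPM in naive replicate 3. It lost the call in 8 of 16 other settings, 5 of which left out 1 pool, and had a log2 fold change of -0.55 (limma adjusted p = 0.00205) after correction for GC content and transcript length. mt-Nd4l was the gene not called (log2 fold change -0.17, limma adjusted p = 0.136). It shares bases with mt-Nd4, as mt-Atp8 does with mt-Atp6, and mt-Atp8 and mt-Nd4l are so short that their level per length is uncertain. mt-Atp8 had the highest level of the mtDNA-encoded genes, with a mean of 20710 TPM in GC against 25410 TPM in naive pools. The mtDNA-encoded sum and its ratio to the nuclear sum thus rest in part on an uncertain level.

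Within a pool, the ratio of the mtDNA-encoded sum to the nuclear OXPHOS sum does not depend on the scaling of the pool. It was 4.14, 3.71 and 4.77 in GC pools and 7.61, 8.12 and 7.14 in naive pools. All GC pools were lower, at 0.549-fold of the naive mean (exact permutation p = 0.1, adjusted 0.108 over 13 ratios). The nuclear and mtDNA-encoded genes of complexes I, III, IV and V thus had medians of opposite sign.

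**Figure D4:**
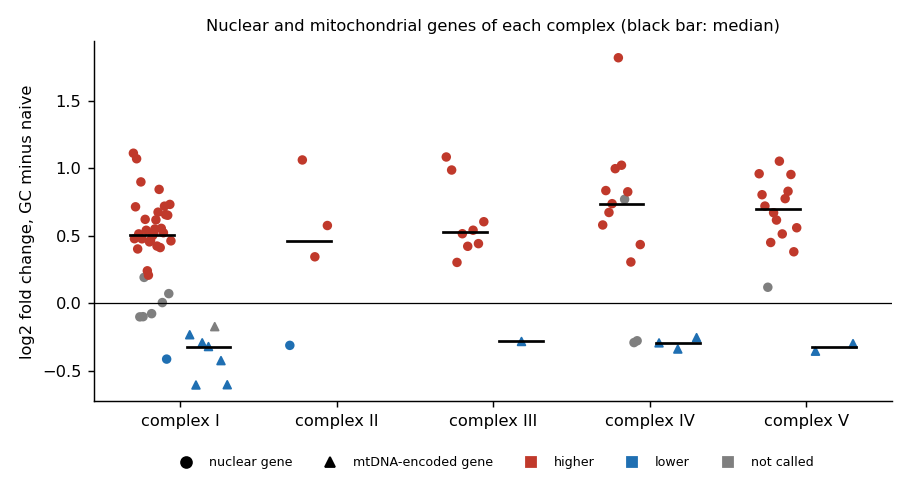
Log2 fold change (GC minus naive) of nuclear (circles) and mtDNA-encoded (triangles) genes of each complex, colored by limma call, with the median as a black bar. Nuclear medians lie between 0.46 and 0.74 and all mtDNA-encoded genes lie below 0.

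Short transcripts and their base composition can shift FPKM between libraries, and OXPHOS transcripts are short. Their median length was 682 bases among all 86 genes, against 2166 bases over all genes tested. After correction of each pool for GC content and transcript length, 61 of the 78 genes were called higher and 5 lower, with a median log2 fold change of 0.42 against -0.08 over all genes. Over all genes, the corrected fit called 3697 of 11031 higher and 4318 lower. Both fits called 63 of the 78 OXPHOS genes with the same sign. Ndufb11 turned from a log2 fold change of 0.21 (limma adjusted p = 0.0352) to -0.01, and it lost its call in 13 of 17 other settings, 5 of which left out 1 pool. Across the 78 genes the log2 fold change had a Spearman correlation of -0.169 with the log2 transcript length, given as a description of genes that share the same 6 pools.

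**Figure D5:**
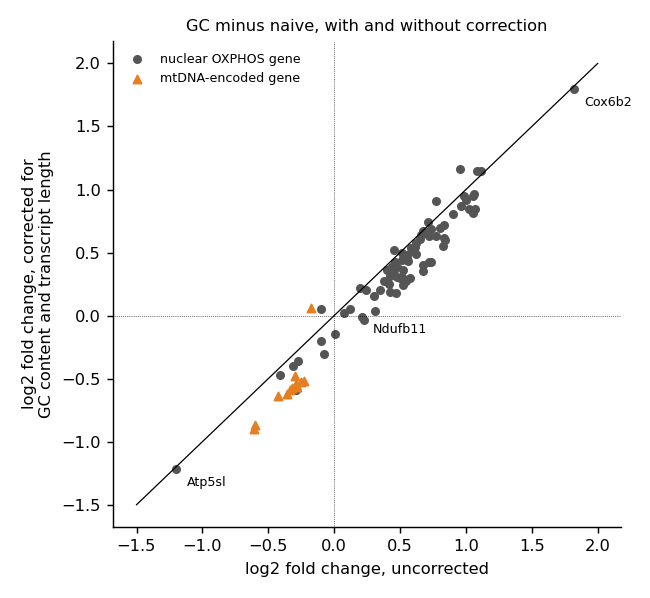
Log2 fold change (GC minus naive) without and with correction of each pool for GC content and transcript length, for the 78 nuclear OXPHOS genes (gray circles) and the 13 mtDNA-encoded genes (orange triangles). The line marks equal values, most points lie below it, and Atp5sl and Cox6b2 stay at the ends of the range.

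Other large complexes were summed in the same pools for scale. The ratio of the OXPHOS sum to that of cytosolic ribosomal protein genes was 0.15, 0.151 and 0.148 in GC pools and 0.0881, 0.0887 and 0.0842 in naive pools. Against the constitutive proteasome genes it was 3.01, 3.1 and 2.99 in GC pools and 3.29, 3.21 and 3.36 in naive pools. OXPHOS RNA was thus higher in GC B cells relative to ribosomal protein RNA and lower relative to proteasome RNA (each exact permutation p = 0.1, adjusted 0.108 over 13 ratios). Of the 34 proteasome genes, all 34 were called higher (100%, against 35.5% of all genes; median log2 fold change 0.70). Of 73 tested cytosolic ribosomal protein genes, 8 were called higher and 40 lower (11.0% and 54.8%, against 35.5% and 30.1% of all genes; median log2 fold change -0.21). After correction for GC content and transcript length these counts were 2 and 56 (median -0.34), against 3697 and 4318 of all 11031 genes.

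Genes that build the complexes did not follow the subunits as a list. Of 47 assembly factors, 12 were called higher (25.5%) and 7 lower (14.9%), both below the 35.5% and 30.1% of all genes tested, with a median log2 fold change of 0.07. Uqcc2, which helps to make the mtDNA-encoded subunit of complex III, had 103 ± 3.03 against 51.3 ± 7.05 TPM (SD, n = 3) and Ndufaf2, a complex I assembly factor, 20.7 ± 2.06 against 11.8 ± 0.786 TPM, and both rose.

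Among the assembly factors that fell, Sco2, a copper chaperone of complex IV, changed by -1.08, Sdhaf1, which helps to place the iron-sulfur clusters of Sdhb, by -0.87 and Bcs1l, which inserts Uqcrfs1 into complex III, by -0.80 on the log2 scale. Sdhaf1 had 25.5, 24 and 25.7 TPM in GC pools and 44.9, 43.1 and 52.4 TPM in naive pools, while Sdhb itself was about 2-fold higher in GC pools. Uqcrfs1 and Bcs1l likewise changed in opposite directions.

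Cytochrome c and coenzyme Q are the mobile carriers between the complexes. Their list also held Cyc1, the cytochrome c1 of complex III, which the symbol rule does not take and which was called higher (log2 fold change 0.43, limma adjusted p = 0.000353). Of the 16 tested genes of this list, 6 were called higher and 4 lower (median log2 fold change 0.01). These shares of 37.5% and 25% lie near those of all genes tested, 35.5% and 30.1%. Coq7, a hydroxylase of coenzyme Q synthesis, had 29, 25.8 and 28.8 TPM in GC pools and 10.2, 9.2 and 11.7 TPM in naive pools (log2 fold change 1.35, SE 0.11, limma adjusted p = 5.59e-05). Coq8a, an atypical kinase of the same pathway, had 13.2, 26.9 and 24.5 TPM in GC pools and 107, 103 and 113 TPM in naive pools (log2 fold change -2.33, SE 0.25, limma adjusted p = 0.000247). Genes of a single pathway thus lay at both ends of the list. Hccs, which attaches heme to cytochrome c, rose by 0.86, and Pdss1, which makes the side chain of coenzyme Q, by 0.94 on the log2 scale.

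Of 24 tested regulators of mitochondrial biogenesis, 8 were called higher and 5 lower (median log2 fold change 0.01), which is 33.3% and 20.8%, against 35.5% and 30.1% of all genes tested. The nuclear factors Gabpa and Nrf1, which bind the ETS and NRF1 motifs, rose by 0.80 and 0.32 on the log2 scale, and Yy1 had 87.8 ± 3.24 TPM in GC against 63 ± 4.51 TPM in naive pools (SD, n = 3). Tfam, which packages mtDNA and starts its transcription, had 90.2, 89.9 and 94.3 TPM in GC pools and 101, 105 and 116 TPM in naive pools (log2 fold change -0.23, SE 0.06, limma adjusted p = 0.0158). Tfam lost its call without GC replicate 1 or GC replicate 2 (log2 fold changes -0.22 and -0.22, limma adjusted p = 0.0508 and 0.0506) and had a log2 fold change of -0.53 (limma adjusted p = 0.000211) after correction for GC content and transcript length.

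The mitochondrial RNA polymerase Polrmt and Mterf3, a repressor of mtDNA transcription, were lower in GC B cells, with log2 fold changes of -0.31 and -0.39, and Slirp, which stabilizes mtDNA-encoded mRNA, rose by 0.64. Esrra and Pprc1 were lower too, with log2 fold changes of -0.73 and -0.58. Ppargc1a, a coactivator of biogenesis in other tissues, was at 0.102 ± 0.0799 TPM in GC against 1 ± 0.251 TPM in naive pools (SD, n = 3), below the filter, and Ppargc1b was not called. Myc was not called, with 55.1 ± 2.54 against 58.2 ± 2.47 TPM (SD, n = 3; log2 fold change -0.08, SE 0.06, limma adjusted p = 0.281).

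A list of carriers and uncoupling genes also held outer membrane channels, Atpif1, Higd1a and Higd2a. Of its 10 tested genes, 9 were called higher (90%, against 35.5% of all genes tested) and 1 was not called (median log2 fold change 0.81). Slc25a4 and Slc25a5, which exchange ADP for ATP across the inner membrane, had 145 ± 2.75 against 50.5 ± 1.1 TPM and 640 ± 14.7 against 328 ± 7.5 TPM (SD, n = 3). Slc25a3, which brings in phosphate, was the gene not called, with 511 ± 13.4 against 469 ± 29.8 TPM. Ucp2, a carrier of the uncoupling protein family, had 2471, 2437 and 2511 TPM in GC pools and 1103, 1246 and 1170 TPM in naive pools (log2 fold change 1.08, SE 0.05, limma adjusted p = 5.96e-06), a higher level than that of any nuclear OXPHOS subunit in the same pool. Vdac3, a channel of the outer membrane, rose by 1.39 and Atpif1, the inhibitor of complex V, by 0.78 on the log2 scale.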

How the data were processed

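RNA-Seq libraries were made from total RNA with a NEBNext Ultra kit. According to the study's methods and the submitters' processing notes, reads were demultiplexed with CASAVA 1.8, trimmed with cutadapt 1.9 and quantified with RSEM 1.2.25 on the mouse transcriptome of GRCm38. The authors deposited FPKM per gene and pool, and the notes also name edgeR with no role. FPKM were rescaled to TPM in each pool. The FPKM hold no counts, so precision was read from the spread between pools, and no counting interval is given. The depth of each pool was not recovered.

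Symbols came from the mouse GENCODE annotation and names and positions from RefSeq (GRCm38.p6), which matched all 86 genes. Values were compared as log2(TPM + 1) with a filter of 1 TPM reached in 3 or more pools, by limma 3.58.1 in R 4.3.3 (eBayes with trend, two-sided, Benjamini-Hochberg adjustment over all 12785 genes, called under 0.05). Sums and ratios were compared with two-sided exact permutation tests. Other steps used Python 3.11.15, pandas 2.3.3, scipy 1.17.1 and matplotlib 3.10.9. Fits were tested on simulated data.

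Genes are named for each complex by the highest levels and the largest called changes in each direction without overlap, as alternative forms, catalytic subunits or mtDNA-encoded subunits, and in the other lists by the largest called changes and as regulators. Genes not called, Ndufs5, Ndufb11, Yy1, Polrmt, Slc25a3, Atpif1 and genes listed for a motif were named after their values were seen. The OXPHOS genes and the lists were chosen with earlier results of these data known. Some genes under these rules are not reported here. Of 343 list symbols sought, 1 was not matched. Alternatives covered the pseudocount, the filter, the scaling, a replicate block, a correction for GC content and length (loess on 86.3% of tested genes and all tested OXPHOS genes) and leaving out each pool. TPM without mtDNA-encoded genes and Ndufa4 counted in complex IV were added after seeing the data.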

Additional observations from a re-analysis of the deposited data

How the results depend on the processing

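Over the settings tried, the number of OXPHOS genes called higher lay between 59 and 64. The number called lower was 3, but 5 after quantile normalization, 5 after correction for GC content and length, and 6 when that correction was fitted with the replicate block. For complex I these settings gave 2, 3 and 3 lower calls against 1, and for complex IV quantile normalization and the corrected fit with the replicate block gave 1 lower call, Cox7c. The mtDNA-encoded genes called lower, 12 in the reported fit, were 2 after quantile normalization, 7 with the replicate block and 7 to 12 when each pool was left out. Without a filter on low values, mt-Nd1, mt-Co1, mt-Atp8 and mt-Cytb lost their calls (limma adjusted p = 0.083, 0.116, 0.114 and 0.0956). Assembly factors called lower rose from 7 of 47 to 12 of 46 after correction and 14 of 46 with the replicate block. Regulators called higher fell from 8 to 5 after quantile normalization and in the corrected fit with the replicate block, and those called lower rose from 5 to 8 (FPKM as deposited, median of ratios scaling) or 9 (quantile normalization, correction without and with the block). Leaving out each pool gave 2 to 4 lower calls for cytochrome c and coenzyme Q genes and 1 to 2 for mitochondrial ribosomal proteins. Over all genes, lower calls were 3852 of 12785 in the reported fit and 4450 of 12785 after quantile normalization. They were 4318 of 11031 after correction and 4225 of 11031 with the block. On FPKM as deposited they were 4126 of 12308, and after median of ratios scaling 4131 of 12785. Higher calls were 4540 of 12785 in the reported fit and 4080 of 12785 after quantile normalization. In the corrected fit with the block they were 3629 of 11031. The causes were not tested.

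Directions turned mainly for genes that were not called. After correction, without and with the replicate block, the log2 fold change was 0.0523 for Ndufa3, -0.0111 for Ndufb11 (called in the reported fit), -0.148 for Ndufs3, -0.0331 for Atp5s and 0.0607 for mt-Nd4l. Ndufs3 was at -0.0457 on FPKM as deposited, -0.127 after quantile normalization, -0.0346 after median of ratios scaling, -0.0314 without ribosomal protein and immunoglobulin genes, and -0.019 without mtDNA-encoded genes. Ndufv1 was at -0.0674 after quantile normalization. Leaving out each pool gave ranges of -0.303 to 0.0499 for Ndufa3, -0.262 to 0.0283 for Ndufb4, -0.0169 to 0.0228 for Ndufs3 and -0.496 to 0.112 for Cox7b. Of 1634 values of named genes under these settings, 22 turned direction, 69 lost a call and 13 gained one, and a value that turned can be among those that lost or gained a call; the sums and ratios kept their direction in all settings in which they were computed.

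Replicate numbers are shared by both populations, but pools of the same number are not stated to share mice, so the numbers were not taken as pairs. Deviations of same-numbered pools correlated by 0.083, 0.0225 and 0.0456. The same-numbered GC pool was the best match of naive replicates 1 and 3. Naive replicate 2 correlated best with GC replicate 3, at 0.0298. With 3 pools per population these values cannot decide whether pools are paired. With the replicate block 63 OXPHOS genes were called higher and 3 lower. With 3 pools per population, exact tests cannot go below 0.1, and FPKM give no read depth, so changes in genes near 1 TPM are the least certain.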

Other observations

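Mitochondrial ribosomes translate the mtDNA-encoded subunits, and their proteins are encoded in the nucleus. Of 76 tested mitochondrial ribosomal protein genes, 55 were called higher in GC B cells (72.4%, against 35.5% of all genes tested) and 3 lower (3.95%, against 30.1%), with a median log2 fold change of 0.46, and their summed TPM was 1.4-fold higher (exact permutation p = 0.1). After correction for GC content and transcript length, 42 were called higher, against 3697 of all 11031 genes. Mrpl18, Mrpl27 and Mrpl40 rose most, by 1.31, 1.17 and 1.06 on the log2 scale. Mrpl24, Mrpl30 and Mrps18b were lower, with log2 fold changes of -0.57, -0.26 and -0.16. The RNA of the proteins of this ribosome and the RNA that it translates thus differed between the populations in opposite directions.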
